A study of Arabidopsis thaliana with 12 samples.

Results

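WRKY transcription factors were followed in Arabidopsis seedlings in which red light perception, brassinosteroid (BR) perception or both were impaired. A probe set, the group of short probes that measures a transcript on the Affymetrix ATH1 array, was taken as a member when it had a single gene whose symbol begins with WRKY (or ATWRKY) and a number. This gave 13 genes, each with 1 probe set, of 22746 probe sets tested. RefSeq lists 72 Arabidopsis genes with a WRKY symbol or synonym, and the other 59 had no probe set named here. The array platform's annotation gave a WRKY symbol to 6 of the members (*WRKY6*, *WRKY20*, *WRKY22*, *WRKY42*, *WRKY47* and *WRKY53*). The probe sets of another 6 (*WRKY18*, *WRKY32*, *WRKY33*, *WRKY40*, *WRKY46* and *WRKY70*) were named only by the study's own gene tables, which were drawn from these same samples. *WRKY1* has a single gene in the annotation under the symbol *ZAP1*, and its WRKY name came from those tables too.

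The 12 arrays held RNA of whole seedlings of 4 genotypes, 3 arrays each, and the labels call the 3 samples of a genotype biological replicates. Ws-2 was the wild type. *phyB-77* carries a premature stop codon in *PHYTOCHROME B*, the main red light receptor, and was isolated after ethyl methanesulfonate mutagenesis of Ws-2. *bri1-5* is a weak allele of the BR receptor gene *BRASSINOSTEROID INSENSITIVE 1*, so BR perception is reduced and not abolished, and *phyB-77 bri1-5* carries both mutations. All seedlings grew for 7 days on MS agar in continuous red light, although a legend of the study gives a shorter time. Each mutant is a single line, and no probe set was named *PHYB* or *BRI1* here, so the genotype labels could not be checked on the mutated genes.

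WRKY proteins recognise the W box, a short promoter element, through a domain that holds the WRKY amino acid motif and a zinc finger. Group I proteins carry a pair of such domains, and groups II (with subgroups a to e) and III carry one, with differences in the zinc finger. In Arabidopsis many of them act in immunity, salicylic acid (SA) responses, leaf senescence and nutrient stress, and mitogen-activated protein kinases and small VQ-motif proteins bind or modify several of them. *WRKY46*, *WRKY54* and *WRKY70* are also known to act with the BR-responsive factor BES1 in BR-regulated growth. No probe set was named for *WRKY54* here, nor for *WRKY60*, the third group IIa gene.

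Values are log2 signals, and a gene was called changed at an adjusted p under 0.01 (limma, two-sided, Benjamini-Hochberg over all 22746 probe sets). SE is the standard error of a log2 difference. All 3 mutants were compared with the same Ws-2 arrays, so these comparisons are not independent of each other. The 12 arrays had medians between 5.87 and 5.99, and arrays of a genotype correlated at 0.993 to 0.998 over all probe sets, against 0.969 to 0.988 between genotypes. No pair of arrays held identical values. The number of arrays limits the precision, with a median SE of 0.10 for a mutant against Ws-2.

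The WRKY genes called against the wild type were all higher, and which genes they were depended on the mutant. Of these 8 genes, 6 became members only through the study's tables. In *phyB-77*, 5 of 13 were higher (*WRKY1*, *WRKY18*, *WRKY22*, *WRKY32* and *WRKY46*) and 0 were lower, where 8.56% of all probe sets were called higher and 6.77% lower. Among *bri1-5* seedlings, 4 were higher (*WRKY1*, *WRKY20*, *WRKY32* and *WRKY40*) and 0 lower, where 10.5% of all probe sets were higher and 8.61% lower. In the double mutant, *phyB-77 bri1-5*, 5 were higher (*WRKY1*, *WRKY22*, *WRKY32*, *WRKY40* and *WRKY70*) and 0 lower, where 6.55% of all probe sets were higher and 8.01% lower. Only *WRKY1* and *WRKY32* were called in all 3 mutants, as were 3.4% of all probe sets. Both became members only through the study's tables, so nothing is read from this count. Of the probe sets named only by those tables, 21.5% were called in all 3, against 2.93% of those with a gene in the annotation.

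The source of the names bears on these counts. Of the probe sets named only by the study's tables, 97.7% were called in at least 1 of the 3 mutants (32.7% of all probe sets were). They were called higher in at least 1 mutant more often (69.9%) than lower (40.3%), against 18.3% and 16.7% of all probe sets. Nothing is therefore read from the 5 of 6 such WRKY genes that were called, or from their direction. Of the 6 members with a WRKY symbol in the annotation, 2 were called in at least 1 mutant (*WRKY20* and *WRKY22*), where 28.6% of all probe sets with a single gene in the annotation were called. *WRKY1*, a member only through the tables, was called as well. The median log2 change of the 13 genes was 0.32 in *phyB-77*, 0.20 with *bri1-5* alone and 0.39 with both mutations, where the medians of all probe sets were 0.01, 0.01 and -0.02. For the 6 members with a WRKY symbol in the annotation the medians were -0.01, 0.20 and -0.04. The counts therefore describe the named genes and not the WRKY family.

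**Figure D1:**
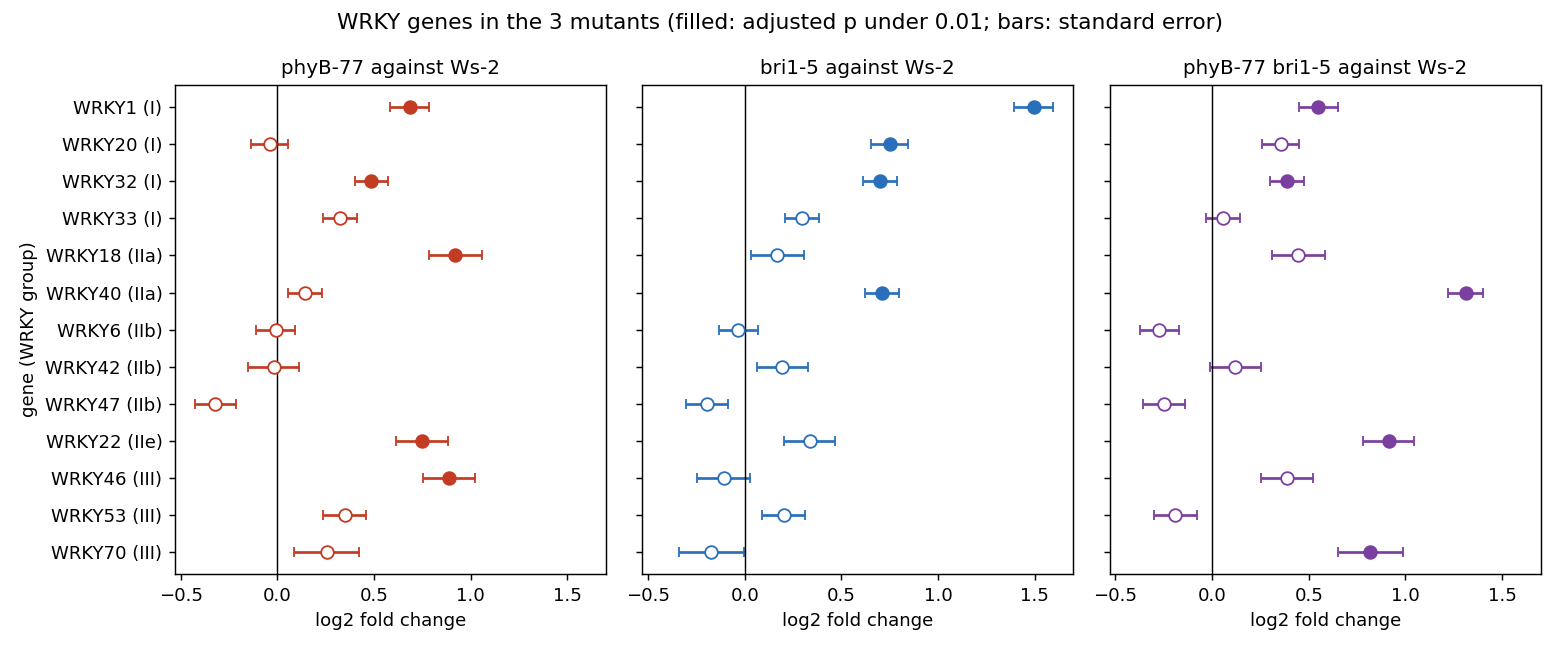
Log2 fold change of each WRKY gene (y axis, with its WRKY group) against Ws-2 (x axis, 1 panel for each mutant). Points are estimates from 3 arrays per genotype, bars are the standard error and filled points have an adjusted p under 0.01. Every filled point lies to the right of 0, the farthest being *WRKY1* in *bri1-5* at 1.495 and *WRKY40* in the double mutant at 1.31.

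Of the 4 measured group I genes, *WRKY1*, *WRKY20* and *WRKY32* were called higher in *bri1-5*, as were 10.5% of all probe sets. *WRKY1* and *WRKY32* became members only through the study's tables, so nothing is read from this count. *WRKY1* (263626_at, AT2G04880), named *ZAP1* in the annotation after a zinc-dependent activator protein, read 5.67, 5.69 and 5.91 in Ws-2 and 7.14, 7.44 and 7.17 in *bri1-5*. It read 6.50, 6.36 and 6.46 in *phyB-77* and 6.20, 6.32 and 6.39 in *phyB-77 bri1-5*. Every mutant array was above every wild-type array, the *bri1-5* arrays were the highest, and the values of *phyB-77* and the double mutant overlapped. The log2 increase over Ws-2 was 1.495 (SE 0.10, adjusted p = 4.5e-09) in *bri1-5*, 0.68 (SE 0.10, adjusted p = 5.7e-05) in *phyB-77* and 0.55 (SE 0.10, adjusted p = 0.00055) in the double mutant. Against *bri1-5*, the double mutant was lower by a log2 change of -0.95 (SE 0.10, adjusted p = 1.2e-06). Against *phyB-77*, it differed by -0.14 (95% interval -0.35 to 0.08, adjusted p = 0.39).

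*WRKY32* (253603_at, AT4G30935) had the same order of levels over a narrower range. It read 5.73, 5.60 and 5.86 in Ws-2, 6.17, 6.24 and 6.25 in *phyB-77*, 6.41, 6.43 and 6.45 in *bri1-5*, and 6.08, 6.17 and 6.10 in *phyB-77 bri1-5*. All 9 mutant arrays were above the 3 wild-type arrays, and *bri1-5* was again the highest. The log2 increase was 0.49 (SE 0.09, adjusted p = 0.00039) in *phyB-77*, 0.70 (SE 0.09, adjusted p = 7.7e-06) in *bri1-5* and 0.39 (SE 0.09, adjusted p = 0.0030) in the double mutant. This last call was lost without any 1 of 4 arrays, at adjusted p = 0.011 without Ws-2 replicate 1, 0.025 without Ws-2 replicate 2, 0.0201 without double mutant replicate 2 and 0.012 without double mutant replicate 3. The double mutant lay 0.31 below *bri1-5* on the log2 scale with no overlap of arrays, just outside the threshold (adjusted p = 0.011).

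*WRKY20* (253983_at, AT4G26640) was higher in *bri1-5* and did not differ detectably from the wild type in *phyB-77*. Its signals were 6.86, 6.75 and 6.75 in Ws-2 and 6.91, 6.56 and 6.77 in *phyB-77*, and these ranges overlapped. They were 7.46, 7.57 and 7.59 in *bri1-5*, and 7.18, 7.06 and 7.19 in *phyB-77 bri1-5*, which lay between *bri1-5* and the rest with no overlap. The increase in *bri1-5* was 0.75 (SE 0.10, adjusted p = 1.0e-05), while *phyB-77* differed from Ws-2 by -0.04 (95% interval -0.24 to 0.16, adjusted p = 0.83). The double mutant was lower than *bri1-5* (log2 change -0.40, SE 0.10, adjusted p = 0.0043) and higher than *phyB-77* (0.39, SE 0.10, adjusted p = 0.0051). Both of these calls depended on single arrays. The first was lost without *bri1-5* replicate 2 or 3 or any 1 double mutant array, with adjusted p up to 0.028 (without double mutant replicate 2), and the second without *phyB-77* replicate 2 or 3 or any 1 double mutant array, with adjusted p up to 0.035 (without *phyB-77* replicate 2).

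*WRKY33* (267028_at, AT2G38470) acts in defence against necrotrophic fungi and in the synthesis of the phytoalexin camalexin. It read 6.18, 6.26 and 6.29 in Ws-2, 6.58, 6.51 and 6.62 in *phyB-77*, 6.57, 6.61 and 6.46 in *bri1-5* and 6.19, 6.32 and 6.40 in *phyB-77 bri1-5*. The arrays of both parental mutants were above those of the wild type, whereas the double mutant overlapped the wild type. The differences from Ws-2 did not pass the threshold, at 0.30 (adjusted p = 0.016) in *bri1-5*, 0.32 (adjusted p = 0.011) in *phyB-77* and 0.06 (adjusted p = 0.72) in the double mutant.

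**Figure D2:**
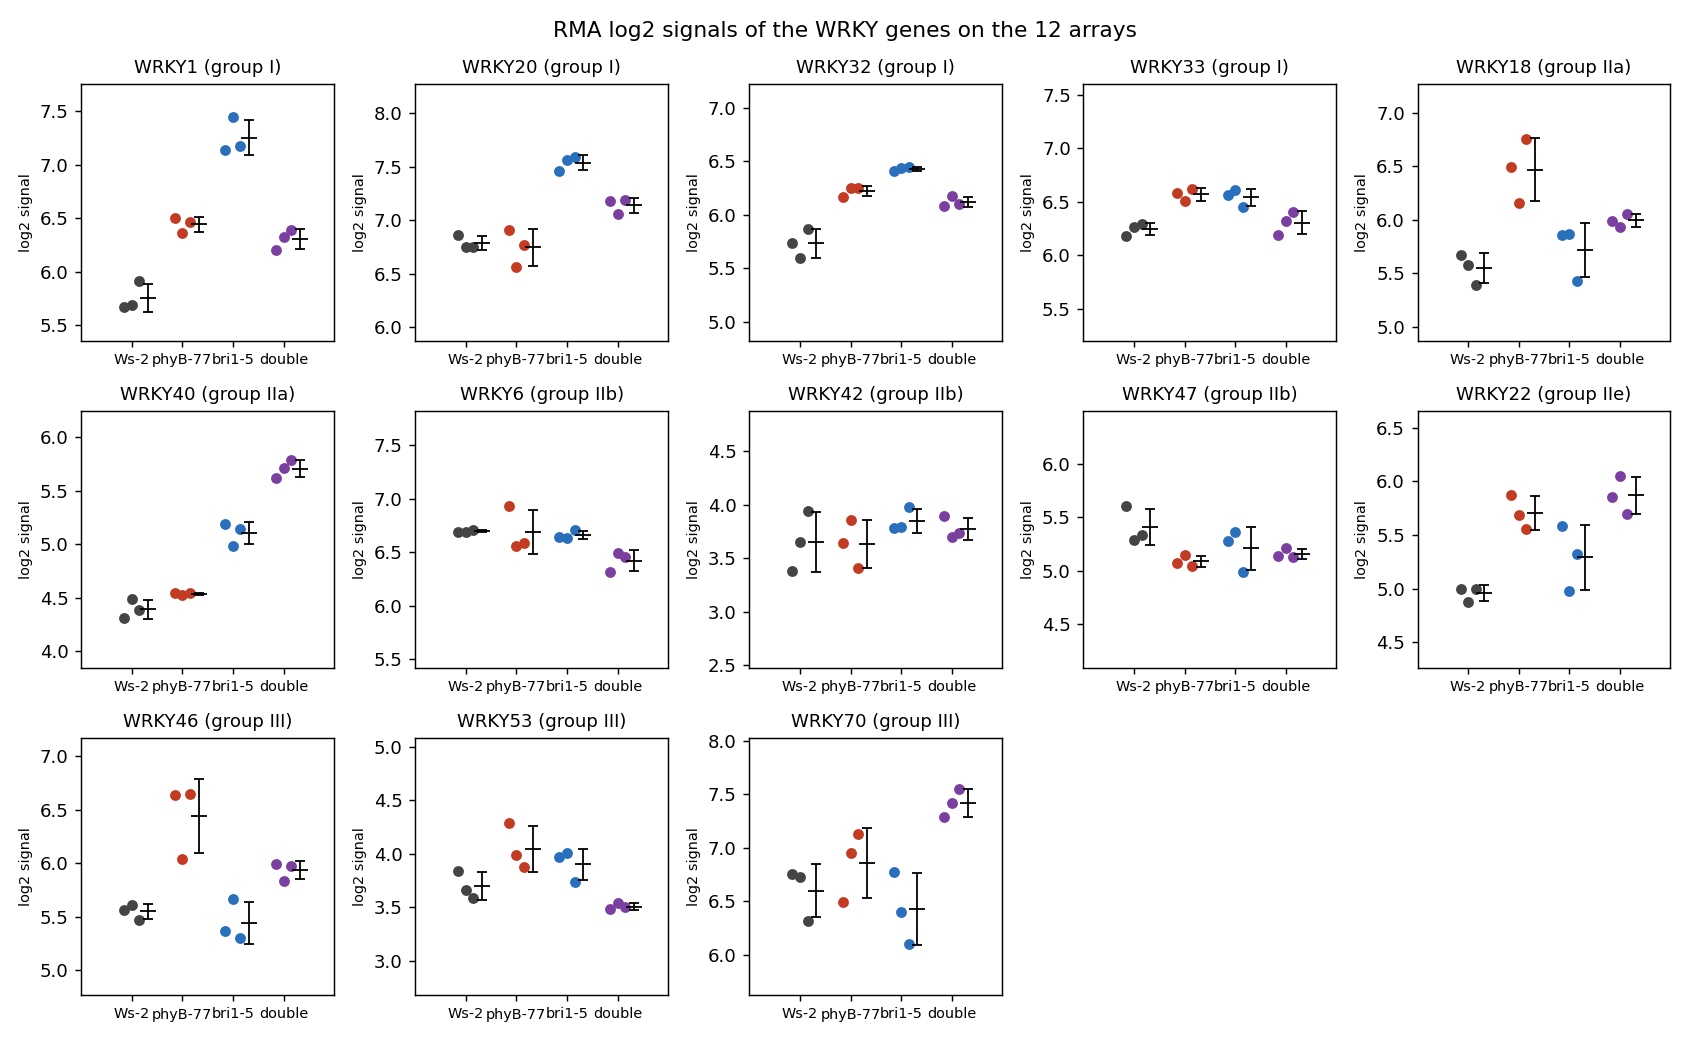
RMA log2 signal (y axis, the same span of log2 units in every panel but a different centre) of the 13 WRKY genes in Ws-2, *phyB-77*, *bri1-5* and the double mutant (x axis, n = 3). Each coloured point is 1 array, and the black dash with bars is the mean ± SD. *WRKY1* was highest in *bri1-5* (7.14 to 7.44), *WRKY40* in the double mutant (5.62 to 5.78) and *WRKY46* in *phyB-77* (6.04 to 6.64), while the arrays of *WRKY42* overlapped in all genotypes.

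The 2 measured genes of group IIa, *WRKY18* and *WRKY40*, were called against Ws-2 in different mutants. Their proteins are known to bind each other and to act together in basal defence and abscisic acid responses. *WRKY18* (253485_at, AT4G31800) read 5.67, 5.58 and 5.39 in Ws-2 and 6.49, 6.16 and 6.75 in *phyB-77*. It read 5.85, 5.87 and 5.42 in *bri1-5*, overlapping the wild type, and 5.99, 5.94 and 6.05 in *phyB-77 bri1-5*, between *phyB-77* and the others. The increase in *phyB-77* was 0.92 (SE 0.14, adjusted p = 6.1e-05). The change in *bri1-5* was 0.17 (95% interval -0.12 to 0.46, adjusted p = 0.41), and that in the double mutant was 0.45 (SE 0.14) and was not called (adjusted p = 0.025). The change in the double mutant was called with array weights (adjusted p = 0.0027) and when only the 6 arrays compared were fitted (adjusted p = 0.0016).

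*WRKY40* (261892_at, AT1G80840) read 4.31, 4.49 and 4.38 in Ws-2 and 4.54, 4.53 and 4.54 in *phyB-77*. It read 5.19, 4.99 and 5.14 in *bri1-5* and 5.62, 5.71 and 5.78 in *phyB-77 bri1-5*. No 2 genotypes overlapped, and the double mutant was the highest. Against Ws-2, the increase was 0.71 (SE 0.09, adjusted p = 7.7e-06) in *bri1-5* and 1.31 (SE 0.09, adjusted p = 2.1e-09, a fold of 2.48) in the double mutant, while *phyB-77* differed by 0.14 (95% interval -0.04 to 0.33, adjusted p = 0.29). The double mutant was higher than *bri1-5* by 0.60 (SE 0.09, adjusted p = 4.6e-05) and higher than *phyB-77* by 1.17 (SE 0.09, adjusted p = 2.1e-08). In these comparisons of the double mutant with its parents, 3 of 13 WRKY genes were higher and 2 lower than in *bri1-5* (7.77% and 11.6% of all probe sets), and 2 were higher and 1 lower than in *phyB-77* (6.44% and 9.51% of all probe sets). *WRKY40* was the member higher in both. Of the called genes, *WRKY1*, *WRKY40* and *WRKY70* became members only through the study's tables, so nothing is read from these counts. Of the 6 members with a WRKY symbol in the annotation, 1 was higher and 1 lower in each comparison.

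None of the 3 group IIb genes was called in any comparison, and all 3 had their WRKY symbol from the annotation. Of all probe sets with a single gene in the annotation, 34.8% were called in at least 1 of the 6 comparisons. With only 3 genes, nothing is read from this count. The 3 genes fall outside the rule by which genes were given values, and are described so that every member is accounted for. *WRKY6* (264746_at, AT1G62300), a regulator of senescence and phosphate transport genes, read between 6.55 and 6.93 in the 9 arrays of Ws-2, *phyB-77* and *bri1-5*, and 6.31, 6.49 and 6.46 in the double mutant. The double mutant arrays were the lowest, with a log2 difference of -0.27 from Ws-2 (adjusted p = 0.058). *WRKY47* (255596_at, AT4G01720) read 5.60, 5.28 and 5.33 in Ws-2 and 5.07, 5.15 and 5.04 in *phyB-77*, a difference of -0.32 that did not pass the threshold (adjusted p = 0.037). *WRKY42* (255337_at, AT4G04450), which acts with *WRKY6* in phosphate homeostasis, was the dimmest member, between 3.38 and 3.98 on the 12 arrays, with all genotypes overlapping.

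The only group IIe gene, *WRKY22* (255568_at, AT4G01250), acts downstream of the flagellin receptor FLS2 and in dark-induced senescence, and was higher in both genotypes that carry *phyB-77*. It read 5.00, 4.87 and 5.00 in Ws-2 and 5.87, 5.68 and 5.56 in *phyB-77*. It read 5.58, 4.97 and 5.32 in *bri1-5*, whose arrays spread widely and overlapped the wild type, and 5.86, 6.05 and 5.70 in *phyB-77 bri1-5*. The log2 increase was 0.75 (SE 0.13, adjusted p = 0.00034) in *phyB-77* and 0.91 (SE 0.13, adjusted p = 4.3e-05) in the double mutant, and 0.34 (adjusted p = 0.067) in *bri1-5*. The double mutant was also higher than *bri1-5*, by 0.58 (SE 0.13, adjusted p = 0.0027). This call was lost without *bri1-5* replicate 2 (0.42, adjusted p = 0.017), without double mutant replicate 1 (adjusted p = 0.011) or replicate 2 (adjusted p = 0.022), and when only the 6 arrays of both genotypes were fitted (adjusted p = 0.013).

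Of the 3 group III genes, *WRKY46* was called higher in *phyB-77*, *WRKY70* in the double mutant and *WRKY53* in no mutant. *WRKY46* (263783_at, AT2G46400) read 5.56, 5.61 and 5.47 in Ws-2, 6.63, 6.04 and 6.64 in *phyB-77*, 5.36, 5.66 and 5.30 in *bri1-5*, and 5.99, 5.84 and 5.98 in *phyB-77 bri1-5*. It was highest in *phyB-77*, where it rose by 0.89 (SE 0.14, adjusted p = 8.0e-05), and the *bri1-5* arrays overlapped the wild type (-0.11, 95% interval -0.40 to 0.18). The double mutant lay between the wild type and *phyB-77* with no overlap, and neither its difference from Ws-2 (0.39, adjusted p = 0.049) nor that from *phyB-77* (-0.50, adjusted p = 0.011) was called.

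*WRKY70* (251705_at, AT3G56400), a node between SA and jasmonate responses, was higher only in the double mutant among the comparisons with Ws-2. It read 6.76, 6.73 and 6.31 in Ws-2, 6.49, 6.95 and 7.13 in *phyB-77*, 6.77, 6.40 and 6.10 in *bri1-5*, and 7.29, 7.41 and 7.54 in *phyB-77 bri1-5*. The arrays of the first 3 genotypes overlapped, and all double mutant arrays were above them. The increase of the double mutant was 0.82 over Ws-2 (SE 0.17, adjusted p = 0.0014) and 0.99 over *bri1-5* (SE 0.17, adjusted p = 0.00019), while 0.56 over *phyB-77* was not called (adjusted p = 0.019). The increase over Ws-2 was not called without Ws-2 replicate 3 (0.67, adjusted p = 0.013) or double mutant replicate 3 (0.75, adjusted p = 0.011). *WRKY70* and *WRKY46*, which share a role in SA and BR responses, had their highest values in different genotypes. For neither gene was the difference between *phyB-77* and the double mutant called.

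*WRKY53* (254231_at, AT4G23810), a positive regulator of leaf senescence, gave a dim signal and was not called against Ws-2 in any mutant. It read 3.84, 3.66 and 3.59 in Ws-2, 4.28, 3.98 and 3.87 in *phyB-77*, 3.96, 4.002 and 3.73 in *bri1-5*, and 3.48, 3.54 and 3.50 in *phyB-77 bri1-5*. The double mutant arrays were the lowest and the *phyB-77* arrays were above those of the wild type. The double mutant was lower than *phyB-77* by a log2 change of -0.54 (SE 0.11, adjusted p = 0.0013).

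The effect of *phyB-77* depended on the BR receptor allele for 4 WRKY genes. The interaction, that is the log2 effect measured in the *bri1-5* background less the one measured in the wild type, was called negative for *WRKY1*, *WRKY32*, *WRKY33* and *WRKY53* and positive for 0 of 13, where 8.93% of all probe sets were negative and 4.82% positive. Of these, 3 are group I genes, and *WRKY53* is the only one that did not become a member through the study's tables. Of the probe sets named only by those tables, 98.3% were called in at least 1 of the 6 comparisons. Nothing is therefore read from this count. Among the 6 members with a WRKY symbol in the annotation, 1 was negative, where 7.75% of all probe sets with a single annotated gene were. For *WRKY1* the effect of *phyB-77* was 0.68 in Ws-2 and -0.95 in *bri1-5*, an interaction of -1.63 (SE 0.14, adjusted p = 4.0e-07). For *WRKY32* the effects were 0.49 and -0.31, an interaction of -0.80 (SE 0.12, adjusted p = 0.00013). The effect of -0.31 was not called on its own (adjusted p = 0.011). In both genes each single mutant was above the wild type and the double mutant was closer to the wild type than *bri1-5* was.

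For *WRKY53* the effects were 0.35 and -0.39, an interaction of -0.74 (SE 0.16, adjusted p = 0.0020). Neither effect was called on its own (adjusted p = 0.028 and 0.011). For *WRKY33* the effects were 0.32 and -0.24, an interaction of -0.56 (SE 0.12, adjusted p = 0.0030), and again neither was called on its own (adjusted p = 0.011 and 0.050). The *WRKY33* call was lost without double mutant replicate 1 (-0.51, adjusted p = 0.013), after median centring of the arrays (-0.46, adjusted p = 0.012) and after quantile normalization (-0.45, adjusted p = 0.013). *WRKY40* and *WRKY70* had interactions in the other direction, of 0.46 (SE 0.13, adjusted p = 0.013) and 0.73 (SE 0.24, adjusted p = 0.032), which were not called. The interaction of *WRKY40* was called after median centring (0.56, adjusted p = 0.0035) and quantile normalization (0.53, adjusted p = 0.0056). Median centring moved the median interaction of all probe sets by 0.10, from -0.05 to 0.05.

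**Figure D3:**
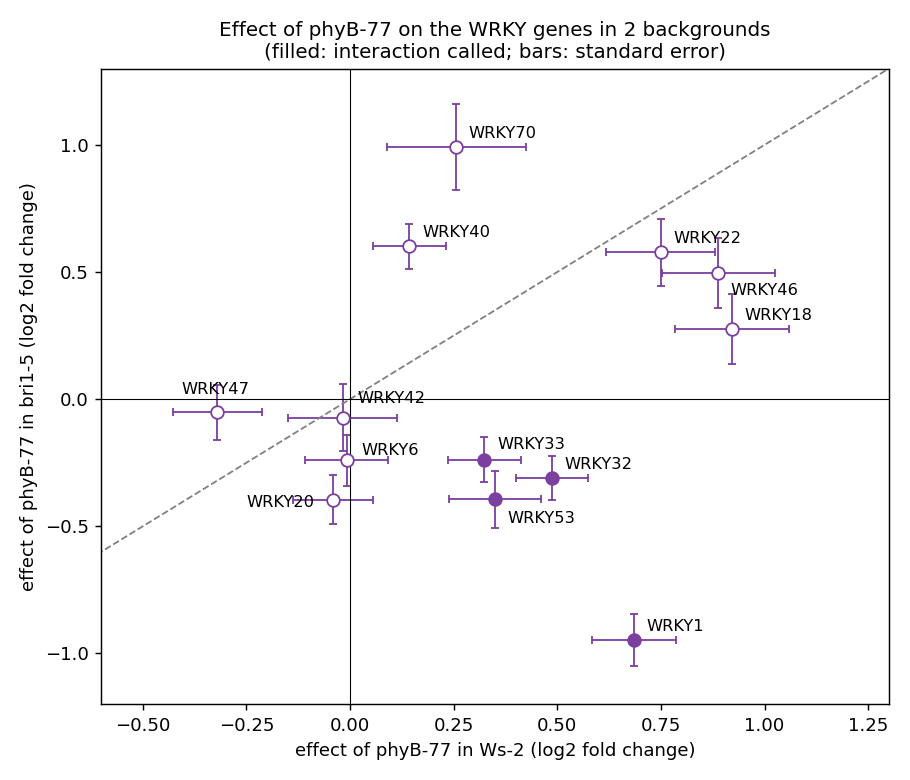
Effect of *phyB-77* on each WRKY gene in Ws-2 (x axis, log2 fold change) and in *bri1-5* (y axis, log2 fold change). Points are estimates from 3 arrays per genotype, bars are the standard error, the dashed line marks equal effects and filled points have a called interaction. *WRKY1*, *WRKY32*, *WRKY33* and *WRKY53* lie below the line, with an estimate above 0 in Ws-2 and below 0 in *bri1-5*. Of these, only *WRKY1* had both effects called. *WRKY70* and *WRKY40* lie above the line.

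Genes that act around the WRKY factors were read on the same arrays from fixed lists, and most of those measured were also named only by the study's tables. Of such probe sets 97.7% were called in at least 1 mutant, so the counts in these lists are not read as results. Over all probe sets, 8.56% were higher and 6.77% lower in *phyB-77*, 10.5% and 8.61% in *bri1-5*, and 6.55% and 8.01% in the double mutant. Of the kinases and VQ proteins that partner WRKY proteins, 2 of 12 had a probe set, and both were lower in *bri1-5*. *SIB2*, which encodes a VQ protein that binds WRKY33, changed by -1.31 (adjusted p = 2.1e-08) in *bri1-5* and -0.55 (adjusted p = 0.00051) in the double mutant, and by -0.10 (adjusted p = 0.57) in *phyB-77*. *IKU1*, a VQ protein of seed growth and the one named by the annotation, changed by -0.62 (adjusted p = 0.0027) in *bri1-5*. *WRKY33* itself was not called in these comparisons.

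Of the SA list, 3 of 16 genes were measured, and 2 were higher in *phyB-77*, 1 lower in *bri1-5* and 2 higher in the double mutant. *PBS3*, an enzyme of SA synthesis, changed by -0.62 (adjusted p = 0.0010) in *bri1-5*, 1.59 (adjusted p = 1.7e-08) in *phyB-77* and 0.81 (adjusted p = 9.4e-05) in the double mutant. *SARD1*, a transcriptional activator of SA synthesis, rose by 0.41 in *phyB-77* (adjusted p = 0.0021). *SAG101*, an immune signalling partner of EDS1, rose by 0.58 in the double mutant (adjusted p = 0.0077). The order of *PBS3*, highest in *phyB-77*, then the double mutant, then Ws-2 and *bri1-5*, is also that of *WRKY46*, whose own differences in *bri1-5* and the double mutant were not called. This order was not particular to the SA list. *CYP71A13* and *TCH3*, from the lists described next, had it too, and *SARD1* did not.

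Of the list for pattern-triggered immunity and camalexin, 3 of 9 genes were measured, with 1 higher in *phyB-77*, 1 lower in *bri1-5* and 1 higher in the double mutant. *CYP71A13*, an enzyme of camalexin synthesis, changed by -0.89 (adjusted p = 5.3e-06) in *bri1-5*, 1.53 (adjusted p = 3.6e-09) in *phyB-77* and 0.04 (adjusted p = 0.86) in the double mutant. *FLS2*, the flagellin receptor upstream of *WRKY22*, was higher in the double mutant by 0.81 (adjusted p = 5.0e-05). *BIK1*, a receptor-associated kinase, was not called against Ws-2 in any mutant.

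Early stress-responsive regulators, which respond to touch, wounding and elicitors within a short time, were higher in the double mutant in all 9 of the 13 that were measured. Their median log2 change there was 1.17, against 0.41 in *phyB-77* (3 higher, 0 lower) and 0.19 in *bri1-5* (1 higher, 1 lower). Only *ZAT10* and *CML38* of these were named by the annotation, so the count of 9 is not read as a result. Over all probe sets, 6.55% were higher in the double mutant. *ZAT10*, a zinc finger repressor, rose by 2.03 (SE 0.12, adjusted p = 2.5e-10) in the double mutant and 0.88 (adjusted p = 1.9e-05) in *phyB-77*, and differed by 0.19 (adjusted p = 0.26) in *bri1-5*. *ZAT12*, a related zinc finger gene, changed by 1.59 (adjusted p = 1.3e-10) in the double mutant, and *ERF104*, an ethylene response factor, by 2.06 (adjusted p = 1.2e-10). *TCH3*, a touch-induced calmodulin-like gene, changed by 0.90, -1.004 and 0.66 in the light receptor, BR receptor and double mutants (adjusted p = 3.5e-07, 1.2e-07 and 1.8e-05). The double mutant is also where *WRKY40* was highest, and the part of this list in the WRKY values was not tested.

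Markers of tissues moved between the genotypes as well. In whole seedlings a change in the share of a cell type and a change in RNA per cell cannot be told apart. The annotation named 1 of 13 seed maturation genes and 2 of 7 root genes. It also named 1 of 3 measured green tissue genes and 0 of 2 senescence genes. The others were named only by the study's tables, and 97.7% of such probe sets were called in at least 1 mutant. The counts of called markers are therefore not read as a measure of tissue. All 13 seed maturation genes were higher in *phyB-77* and 11 in the double mutant (1 lower), with summed linear signals of 1799 to 1970 in Ws-2, 21487 to 22466 in *phyB-77*, 1937 to 2116 in *bri1-5* and 18489 to 19854 in the double mutant. The storage protein gene *CRU3* rose by 3.60 on the log2 scale in *phyB-77* (adjusted p = 8.9e-16). These 2 genotypes are those in which *WRKY22* was called higher.

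Of 7 root genes, 6 were lower in *phyB-77*, and *bri1-5* had 5 higher and 1 lower, as with the iron transporter gene *IRT1* (-0.82, adjusted p = 0.00017, and 0.96, adjusted p = 2.9e-05). The double mutant had 0 higher and 3 lower. Its summed root signals were below those of Ws-2 and *bri1-5* and overlapped those of *phyB-77*, at 9510 to 10503 in Ws-2, 8908 to 10639 in *phyB-77*, 9961 to 10386 in *bri1-5* and 8637 to 9459 in the double mutant. A linear sum weighs bright genes most, and in *phyB-77* it overlapped that of Ws-2 although 6 genes were lower. Of 7 leaf and green tissue genes 3 were measured, and all 3 were lower in *phyB-77* (summed signal 20981 to 24949 against 34204 to 36523 in Ws-2) and not called in the other mutants. *LHCB6*, a light-harvesting antenna gene, fell by 0.71 there (adjusted p = 6.3e-06).

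Of 7 leaf senescence genes 2 were measured, *SAG21* and *SEN1*, and *bri1-5* had more of both (0.85, adjusted p = 2.0e-06, and 0.68, adjusted p = 0.00011) and in the double mutant (0.50, adjusted p = 0.00065, and 1.02, adjusted p = 1.2e-06), whereas *SAG21* was lower in *phyB-77* (-0.37, adjusted p = 0.0072). Their summed signal was 3910 to 4262 in Ws-2, 3425 to 4102 in *phyB-77*, 6509 to 7664 in *bri1-5* and 6535 to 7047 in the double mutant. The senescence regulator *WRKY53* was not called higher in either of these 2 genotypes. The part of the tissue markers in the WRKY values was not tested.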

How the data were processed

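Total RNA of whole seedlings was hybridised to Affymetrix ATH1 arrays. The deposited table holds log2 signals that the authors computed by RMA (background correction, quantile normalization and summary of the probes of a set), as the submitters' processing notes name it, with no version. The study's statistical method is described elsewhere by its authors and is not given in the sources used here. From the table, the 64 controls were removed, and limma 3.58.1 (R 4.3.3) was fitted to the remaining 22746 probe sets (lmFit and eBayes, 1 coefficient per genotype, all 12 arrays, 8 residual and 9.85 prior degrees of freedom). Python 3.11.15 with pandas 2.3.3 and matplotlib 3.10.9 served for names and figures. The fitting script was tested on simulated data.

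Platform annotation gave 13513 probe sets a single gene and 503 several, which were not named. The study's gene tables, used for names only, named a further 1295, and 7435 had no name here. Symbols were checked against RefSeq locus tags. *WRKY1* has the annotation symbol *ZAP1* and enters through the study's tables, matched without regard to case. The columns of the authors' own fold changes and p-values in those tables were not used. No genome or sequence was used, so no coordinates or sequences are given.

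The members and lists were chosen with earlier results of these data known. WRKY genes with a call in at least 1 of the 6 comparisons, and those of the *WRKY18* and *WRKY46* subfamilies, were given values, with up to 4 genes of each other list. Alternatives were median centring, quantile normalization, an adjusted p under 0.05, a fold above 1.5, the dimmest 40% of probe sets left out, 1 probe set per gene, trend and robust settings, weights per array, a block by replicate number, a fit to only the 6 arrays of a comparison, and fits without each array.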

Additional observations from a re-analysis of the deposited data

Results flagged for a closer look

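The effect of *phyB-77* differed between *bri1-5* and Ws-2, by the interaction term of the limma fit, for 4 WRKY genes. The log2 effect in *bri1-5* minus that in Ws-2 was -1.63 for *WRKY1* (adjusted p = 4.0e-07), -0.80 for *WRKY32* (adjusted p = 0.00013), -0.74 for *WRKY53* (adjusted p = 0.0020) and -0.56 for *WRKY33* (adjusted p = 0.0030). Each had 3 arrays per genotype. The *WRKY33* call was lost after median centring, after quantile normalization and without double mutant replicate 1, and *WRKY53* is among the dimmest 40% of probe sets. Only for *WRKY1* were both effects of *phyB-77* called on their own. *WRKY1*, *WRKY32* and *WRKY33* became members only through the study's tables, so nothing is read from the count of 4. Groups of 3 arrays are too small for the test for a sample that stands apart, so none was run.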

How the results depend on the processing

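Of 78 tests of WRKY genes (13 genes in 6 comparisons) 26 were called, 17 of these were called under every alternative that gave a value and 0 changed direction. Outside the fold criterion and the fits without 1 array, 24 stayed called. *WRKY40*, *WRKY42* and *WRKY53* are among the dimmest 40% of probe sets and gave no value when these were left out. Of all probe sets, 13.8% (interaction) to 19.4% (double mutant relative to *bri1-5*) were called in a comparison. Of the 13 WRKY genes, 7 became members only through the study's tables, so nothing is read from the size of the WRKY counts. Counts of called WRKY genes moved by over 1.5 times as follows. With an adjusted p under 0.05, the count went from 5 to 8 in *phyB-77* against Ws-2, from 5 to 8 in the double mutant against Ws-2 and against *bri1-5*, from 3 to 7 against *phyB-77* and from 4 to 7 for the interaction. With a fold above 1.5 it was 3, 3 and 1 for the double mutant against Ws-2, *bri1-5* and *phyB-77*. With array weights it was 8 against Ws-2 and 5 against *phyB-77*, and with only the 6 arrays compared 8 against Ws-2. Without 1 array, the counts ran from 5 to 6 for *phyB-77* against Ws-2, from 4 to 5 for *bri1-5* against Ws-2, from 3 to 7 for the double mutant against Ws-2 (3 without double mutant replicate 3) and against *bri1-5* (3 without double mutant replicate 1 or 2), from 2 to 5 against *phyB-77* (5 without *bri1-5* replicate 3) and from 3 to 5 for the interaction.

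The sign changed only for differences that were not called. Without 1 array, *WRKY6* in *phyB-77* against Ws-2 ran from -0.13 to 0.059, *WRKY20* from -0.12 to 0.052 and *WRKY42* from -0.16 to 0.12, and *WRKY42* in the double mutant against Ws-2 ran from -0.017 to 0.26. The *WRKY42* interaction became 0.048 with median centring, 0.0021 with quantile normalization and 0.037 with array weights, and ran from -0.20 to 0.083 without 1 array. *WRKY47* in the double mutant against *bri1-5* became 0.0083 with quantile normalization and ran from -0.16 to 0.026 without 1 array. The cause was not tested.

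A block by replicate number gave 5, 4, 5, 6, 3 and 4 called WRKY genes for the light receptor, BR receptor and double mutants against Ws-2, the double mutant against *bri1-5* and *phyB-77*, and the interaction. It removed 0 calls and added 1 (*WRKY53* in the double mutant against *bri1-5*). Deviations from the genotype means correlated at -0.19 to 0.076 in 18 pairs of same-numbered arrays. With 3 arrays per genotype, this does not settle whether same-numbered samples shared a batch. Over all probe sets, median centring moved the share of calls that were higher from 55.8% to 44.4% in *phyB-77* against Ws-2, from 40.4% to 53.9% in the double mutant against *phyB-77* and from 35.1% to 53.0% for the interaction (47.2% with quantile normalization).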
